A study of Mus musculus with 13 samples.

Results

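The genes of sterol and fatty acid synthesis were followed across 13 mRNA sequencing libraries from immunized mice. They were 31 of the 21073 genes measured, chosen by symbol and without regard to their levels. The set held 18 enzymes of the sterol branch, 9 enzymes of the fatty acid branch and 4 regulators (Srebf1, Srebf2, Insig1 and Stard4), and each of the 31 symbols had a row in the table.

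All mice were on the C57BL/6J background and were immunized with a myelin oligodendrocyte glycoprotein peptide in complete Freund's adjuvant, and cells were taken on day 14. DKI mice carry knock-in changes that stop the transcription factor STAT5 from forming tetramers. The 3 myeloid libraries came from DKI mice that also received pertussis toxin, to induce experimental autoimmune encephalomyelitis, a model of multiple sclerosis. Sorting gave 1 library each of bone marrow monocytes, spinal cord monocytes and spinal cord antigen-presenting cells (APCs), with no WT counterpart analysed here. The labels name the APCs as monocyte-derived. The 10 Th17 libraries came from mice given no pertussis toxin, whose spleen and lymph node cells were grown with the peptide in Th17 medium, after which CD4+ T cells were sorted. These libraries comprised WT (n = 2), DKI (n = 2), DKI expanded without the chemokine CCL17 (n = 3) and DKI expanded with CCL17 (n = 3). No WT library with CCL17 was analysed here. Nothing in the labels says that replicates came from separate animals or cultures, so p-values measure only the spread between these libraries, which may be technical. The ages of the mice and the number pooled per library are not given in the sources used here.

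Cholesterol is built from acetyl-CoA through mevalonate and squalene, and fatty acids are built from the same acetyl-CoA by carboxylation, chain extension and desaturation. Most of these enzymes are known targets of the SREBP transcription factors, which are held in the endoplasmic reticulum by INSIG proteins when sterols are plentiful and are cut and sent to the nucleus when sterols run low. SREBP-2, the product of Srebf2, is best known for driving the sterol genes, and SREBP-1c, from Srebf1, for driving the fatty acid genes. Activated T cells are known to raise both branches as they grow and divide.

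The promoters of 4 of these genes are shown because they carry, or lack, the letters of the sterol response element and the CCAAT box, the binding site of the factor NF-Y that works with SREBPs. Each window runs from 250 bases before to 50 bases after the gene start in RefSeq (GRCm38.p6), 5′ to 3′ on the gene's strand. Capitals mark TCACNNCAC, a form of the sterol response element, and CCAAT, each on either strand.
Hmgcs1 (chr13:119690101-119690400, plus strand): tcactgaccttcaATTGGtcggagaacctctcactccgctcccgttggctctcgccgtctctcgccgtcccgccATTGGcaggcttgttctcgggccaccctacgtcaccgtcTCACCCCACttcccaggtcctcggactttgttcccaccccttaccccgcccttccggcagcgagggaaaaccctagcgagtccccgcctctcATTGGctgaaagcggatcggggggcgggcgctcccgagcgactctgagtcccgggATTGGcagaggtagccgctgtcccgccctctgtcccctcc
Msmo1 (chr8:64733529-64733828, minus strand): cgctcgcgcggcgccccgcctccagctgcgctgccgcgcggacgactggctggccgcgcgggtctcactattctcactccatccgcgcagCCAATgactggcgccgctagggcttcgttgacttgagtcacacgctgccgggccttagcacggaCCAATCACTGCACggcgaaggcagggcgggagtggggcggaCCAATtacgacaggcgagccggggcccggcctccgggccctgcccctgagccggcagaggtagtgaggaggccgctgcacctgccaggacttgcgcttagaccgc
Insig1 (chr5:28071162-28071461, plus strand): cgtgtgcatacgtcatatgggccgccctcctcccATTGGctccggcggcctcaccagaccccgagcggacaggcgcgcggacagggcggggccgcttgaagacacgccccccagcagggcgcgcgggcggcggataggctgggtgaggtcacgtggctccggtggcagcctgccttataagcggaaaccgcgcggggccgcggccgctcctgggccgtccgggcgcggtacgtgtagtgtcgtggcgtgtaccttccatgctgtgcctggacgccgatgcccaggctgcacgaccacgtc
Fasn (chr11:120824498-120824797, minus strand): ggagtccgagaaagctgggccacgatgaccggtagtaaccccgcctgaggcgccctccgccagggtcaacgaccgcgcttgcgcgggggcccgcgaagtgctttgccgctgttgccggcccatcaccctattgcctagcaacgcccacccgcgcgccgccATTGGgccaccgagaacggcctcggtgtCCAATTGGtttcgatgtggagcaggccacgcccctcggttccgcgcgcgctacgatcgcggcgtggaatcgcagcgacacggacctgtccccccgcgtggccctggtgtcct

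Windows were at hand for 24 of the 31 genes, which gave 30 windows because some genes have several starts. TCACNNCAC was found in 4 windows, those of Hmgcs1, Msmo1, Dhcr7 and Hsd17b7, and in 3.8% of all 32851 windows. All 4 are sterol branch genes, out of 15 sterol genes with a window, and none of the 6 fatty acid genes with a window held it. The stricter TCACNCCAC was found, among these genes, in Hmgcs1, and in 1.2% of all windows. CCAAT was present in 70.0% of the windows of these genes and in 37.4% of all windows. It was found in 14 of 15 sterol genes, in all 3 regulators with a window and in 3 of 6 fatty acid genes. GGGCGG, the GC box, was found in 73.3% of the windows against 35.7% of all, and in the same numbers of genes per class (14 of 15, 3 of 3 and 3 of 6). In the windows printed above, Hmgcs1 holds 4 CCAAT boxes and Msmo1 holds 3, and the sterol element of Msmo1 overlaps a CCAAT box. These matches describe letters in the window and are not measured binding.

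Levels are given as log2(RPKM + 1), where RPKM is reads scaled to gene length and to library size in assigned reads, so that levels can be set beside each other between genes. Differences and folds are on the same log2 scale, which understates the change of genes with few reads. The libraries held an estimated 12600000 to 31800000 assigned reads. Broad markers separated the T cell from the myeloid libraries. The 8 T cell markers summed to 1630 to 2280 RPKM in the Th17 libraries and to 0.329 to 22.3 in the myeloid ones. The 10 myeloid markers summed to 16900 to 21800 RPKM in the myeloid libraries. These sums do not check Th17, monocyte or APC identity. Microglia markers summed to 191, 494 and 1250 RPKM in bone marrow monocytes, spinal cord monocytes and APCs. Neutrophil and granule markers summed to 7110, 758 and 1020 RPKM in the same order. Among the Th17 libraries the myeloid markers summed to 22.3 to 99.1 RPKM in the WT and DKI set, and to 791 to 1390 in the 6 libraries of the CCL17 experiment. STAT5 tetramer deficiency leaves the Stat5a and Stat5b transcripts in place, so their levels do not check the genotype label. In the bulk libraries, fewer cells of a type and less RNA per cell cannot be told apart. WT replicate 1 stood apart from the other Th17 libraries in these genes, and folds that rest on it are given with and without it. Its spread also enters the SEs and p-values of the contrast of DKI without CCL17 with DKI.

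The library-by-library comparison of the branches used, for each gene, the deviation from the mean of the 7 group means, and then the median over the 18 sterol and the 9 fatty acid genes. The fatty acid branch had the wider range in both directions. In deviation it lay above the sterol branch in 10 of 10 Th17 libraries and below it in 3 of 3 myeloid libraries. The centre lies between Th17 and myeloid groups, so these counts largely restate a wider Th17 to myeloid difference. In median level the order varied among Th17 libraries. The fatty acid branch was below the sterol branch in DKI replicate 1 (3.83 against 4.51) and above it in DKI replicate 2 (4.87 against 4.73). The widest gaps in deviation were in WT replicate 2, where the sterol branch stood at 0.84 and the fatty acid branch at 1.66, and in the spinal cord monocytes, where they stood at -0.91 and -1.83. The replicates of one Th17 group spread by a pooled SD of 0.28 in the sterol score and 0.46 in the fatty acid score.

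**Figure D1:**
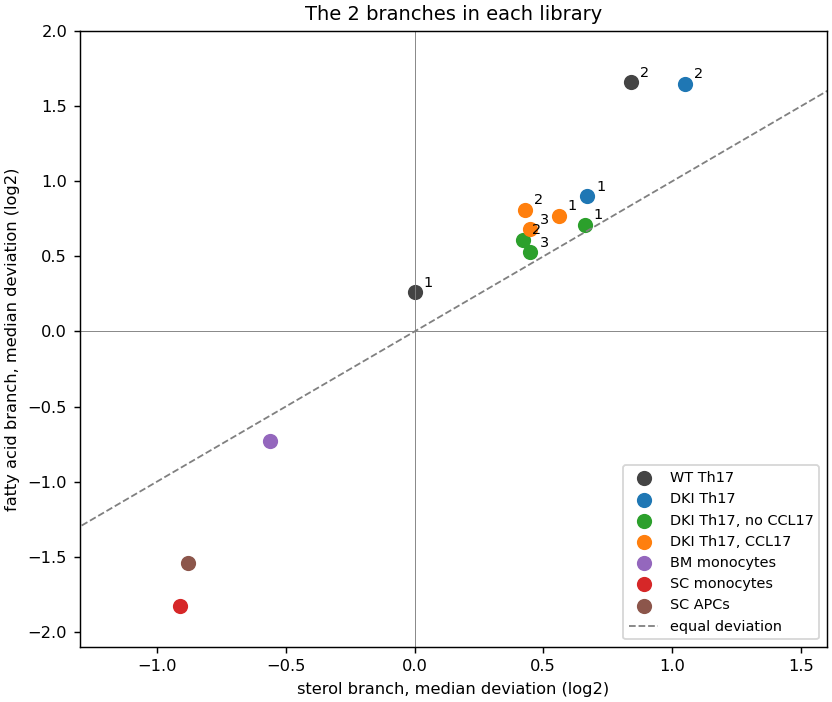
Median deviation of the sterol branch (x axis, log2) and of the fatty acid branch (y axis, log2) in each of the 13 libraries, with replicate numbers beside the Th17 points and a dashed line where both deviate equally. The 10 Th17 libraries lie above the line and the 3 myeloid libraries below it.

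Within the Th17 groups the order was as follows. In WT cells the sterol deviation was 0.00 in replicate 1 and 0.84 in replicate 2, and the fatty acid deviation was 0.26 and 1.66. In DKI cells the sterol deviation was 0.67 and 1.05, and the fatty acid deviation 0.90 and 1.65. Replicate 2 of either genotype was high in fatty acid genes, and the replicates of a genotype differed more in that branch than the genotypes did. The 6 libraries of the CCL17 experiment were closer together, from 0.42 to 0.66 in the sterol branch and from 0.53 to 0.81 in the fatty acid branch. In the bone marrow monocytes the branches stood at -0.56 and -0.73, and in the spinal cord APCs at -0.88 and -1.54.

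Th17 cells held more of nearly every transcript of both branches than the myeloid cells did. In 25 of the 31 genes all 10 Th17 libraries were above all 3 myeloid libraries, and in no gene were all myeloid libraries above all Th17 libraries. The same separation was seen in 42.7% of the 10358 genes with an RPKM of at least 5 in any library, a level that Me1 does not reach. For each gene the median of the myeloid libraries was taken from the median of the Th17 libraries, and the median of these differences was 1.47 in the sterol branch, 1.32 in the regulators and 2.79 in the fatty acid branch, beside 0.67 over those 10358 genes. Cell type, culture, pertussis toxin and tissue all differ between these libraries and cannot be told apart, and no test was made.

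**Figure D2:**
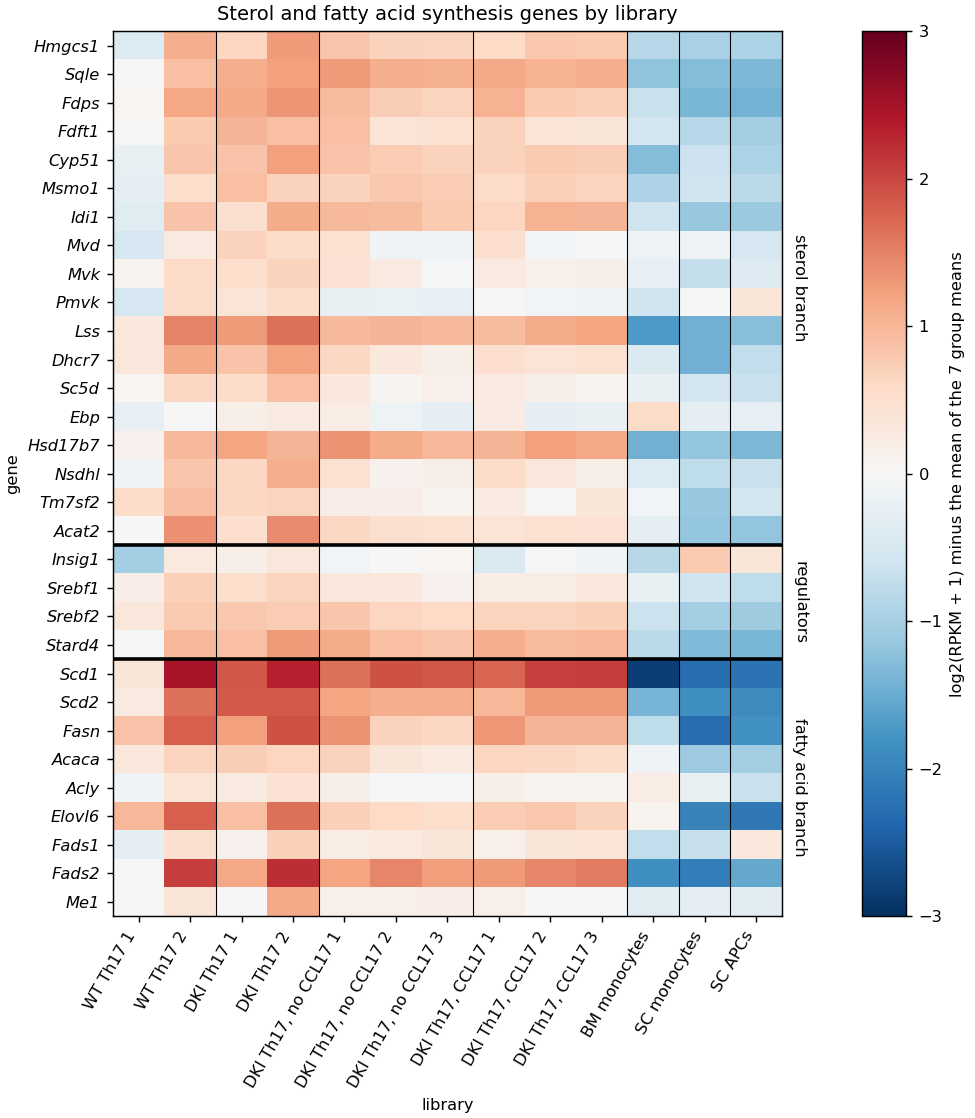
Deviation of each of the 31 genes (rows, in the sterol branch, the regulators and the fatty acid branch) from the mean of its 7 group means in each of the 13 libraries (columns), on the log2(RPKM + 1) scale in colour. Scd1, Scd2, Fasn, Elovl6 and Fads2 have the strongest colours in both directions, and WT replicate 1 is pale among the Th17 columns.

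Among the early enzymes of the sterol branch, Hmgcs1, which makes HMG-CoA, stood at 4.90 and 6.41 in WT, 5.97 and 6.60 in DKI, 5.99 to 6.15 without CCL17 and 5.91 to 6.12 with it. The myeloid libraries were lower, at 4.47 in bone marrow monocytes, 4.34 in spinal cord monocytes and 4.37 in APCs. Pmvk, which phosphorylates phosphomevalonate, was an exception to the separation: it reached 4.30 in APCs, above the 3.43 to 3.91 of WT replicate 1 and the CCL17 experiment. Mvd, the decarboxylase that follows it, was another, at 4.34 in both monocyte libraries against 3.95 to 5.13 in Th17 cells.

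In the squalene and lanosterol steps the separation was wide. Lss, which closes squalene epoxide into lanosterol, stood at 3.35 to 4.70 in Th17 cells and at 1.32 to 1.77 in myeloid cells. Sqle, the squalene epoxidase, ranged from 4.14 to 5.43 and from 2.80 to 2.93. Hsd17b7, a keto-reductase acting on sterol intermediates, ranged from 2.52 to 3.73 and from 0.95 to 1.23. Ebp, the sterol isomerase, did not follow them: its highest value of all 13 libraries, 5.64, was in bone marrow monocytes.

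Of the regulators, Srebf2 (6.12 to 6.60 in Th17 cells, 4.70 to 5.13 in myeloid cells) and Srebf1 (4.79 to 5.36 and 3.90 to 4.43) separated without overlap. So did Stard4, a sterol carrier, at 4.17 to 5.50 and 2.85 to 3.43. Insig1, which retains SREBPs in the endoplasmic reticulum, was the exception, and its highest values, 6.10 and 5.67, were in the spinal cord monocytes and APCs.

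The fatty acid branch held the highest and the lowest levels of the set. Scd2, a stearoyl-CoA desaturase, was the most abundant of the 31 transcripts in each of the 10 Th17 libraries, at 6.34 to 7.93, and stood at 4.20 to 4.68 in myeloid cells. Scd1, its paralog, went from 3.28 to 5.39 in Th17 cells to between 0.09 and 0.70 in myeloid cells. Me1, the malic enzyme that supplies NADPH, was near the lower limit everywhere, at 0.35 to 1.51 and 0.02 to 0.07, and passed the filter of no Th17 comparison. Scd1 and Scd2 are close paralogs, and the sources used here do not give how reads shared between them were counted. Acly, which makes acetyl-CoA from citrate, differed least in this branch: 6.29 to 6.81 in Th17 cells against 6.61, 6.16 and 5.71. Fads1, a desaturase of polyunsaturated fatty acids, also overlapped, with 3.93 in APCs against 3.32 to 4.34 in Th17 cells.

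The WT replicates were far apart in these genes. WT replicate 2 was above WT replicate 1 in 31 of 31 genes, where 56.7% of 11789 genes were, and by 2-fold or more in 12, where 1.41% were. The median gap was 0.88 in the sterol branch, 0.77 in the regulators and 0.79 in the fatty acid branch. Scd1 went from 3.28 to 5.39, Fads2 from 2.68 to 4.74 and Hmgcs1 from 4.90 to 6.41.

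Other lists differed between the same WT replicates. Of 16 interferon response genes 0 were higher in replicate 2, with a median of -2.21, and their summed level was 3050 RPKM in replicate 1 and 856 in replicate 2. All 14 cell cycle genes were higher in replicate 2 (median 0.88), and 0 of 10 myeloid markers were (median -0.81). The part of these in the sterol and fatty acid values was not tested.

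The DKI replicates differed mainly in the fatty acid branch. DKI replicate 2 was above replicate 1 in 14 of 18 sterol genes (median 0.18) and in 8 of 9 fatty acid genes (median 0.60), where 53.2% of all 11789 genes were. The 2-fold mark was passed by Fads2 (3.83 to 4.87) and Me1 (0.39 to 1.51), where 2.8% of all genes passed it. All 16 interferon genes (median 1.05) and all 14 cell cycle genes (median 0.90) were higher in DKI replicate 2 too, as were 8 of 10 myeloid markers (median 0.66). In the WT pair the interferon genes and myeloid markers went the opposite way to the synthesis genes, and in the DKI pair most went the same way.

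The comparison of DKI with WT Th17 cells asks what loss of STAT5 tetramers does in the T cells. No synthesis gene was called between them. The sterol genes lay higher in DKI cells, with a median log2 fold of 0.55 against 0.29 in the fatty acid branch, 0.42 in the regulators and 0.03 over all 11078 genes tested, and 28 of 30 tested genes had a fold above 0. The gap between the branch medians, 0.26, was 0.10 with means in place of medians, 0.15 with the length trend removed, 0.12 without WT replicate 1 and -0.01 without DKI replicate 1. With limma and Benjamini-Hochberg adjustment over all genes, 0 of 11078 genes were called in either direction (0.0% higher and 0.0% lower), the smallest adjusted p being 0.0659. At an unadjusted p under 0.05 there were 1879 genes, or 17.0%, among them 6 of the 30 synthesis genes. In 8 genes both DKI libraries were above both WT libraries, where 19.9% of all genes were, and in 0 both were below, where 20.1% of all genes were.

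Of those 8 genes 7 belong to the sterol branch. Msmo1, the sterol methyl oxidase, had levels of 4.91 and 5.71 in WT cells against 6.08 and 5.87 in DKI cells, a fold of 0.66 (SE 0.21, limma adjusted p = 0.196). Sqle stood at 4.14 and 5.06 and at 5.24 and 5.38, a fold of 0.71 (SE 0.24, limma adjusted p = 0.208). Cyp51, the lanosterol demethylase, stood at 4.22 and 5.28 and at 5.31 and 5.68, a fold of 0.74 (SE 0.28, limma adjusted p = 0.246). In each of these genes the lower WT value was replicate 1, and the upper WT value lay just below the lower DKI value. Mvd averaged 4.33 (SD 0.54) in WT and 5.07 (SD 0.10) in DKI cells (n = 2 each), a fold of 0.74 (SE 0.29). Fdft1, squalene synthase, had a fold of 0.55, Hsd17b7 one of 0.56 and Ebp one of 0.35, all without overlap.

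In the fatty acid branch only Scd2 was without overlap. It had levels of 6.34 and 7.74 in WT cells against 7.92 and 7.93 in DKI cells, a fold of 0.89 (SE 0.35, limma adjusted p = 0.261). Scd1 (fold 0.68, SE 0.54), Fads1 (0.33, SE 0.26) and Acly (0.19, SE 0.16) overlapped between the groups. Fasn, the fatty acid synthase, had levels of 4.68 and 5.62 in WT cells against 5.06 and 5.74 in DKI cells, a fold of 0.25 (SE 0.35). Elovl6, which elongates palmitate, had a fold of -0.11.

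The regulators overlapped between the genotypes. Insig1 had levels of 4.30 and 5.60 in WT cells against 5.48 and 5.66 in the DKI libraries (fold 0.62, SE 0.34). Stard4 had a fold of 0.63 (SE 0.28). Srebf2 had a fold of 0.21 and Srebf1 one of 0.16, smaller than those of most of the sterol enzymes.

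**Figure D3:**
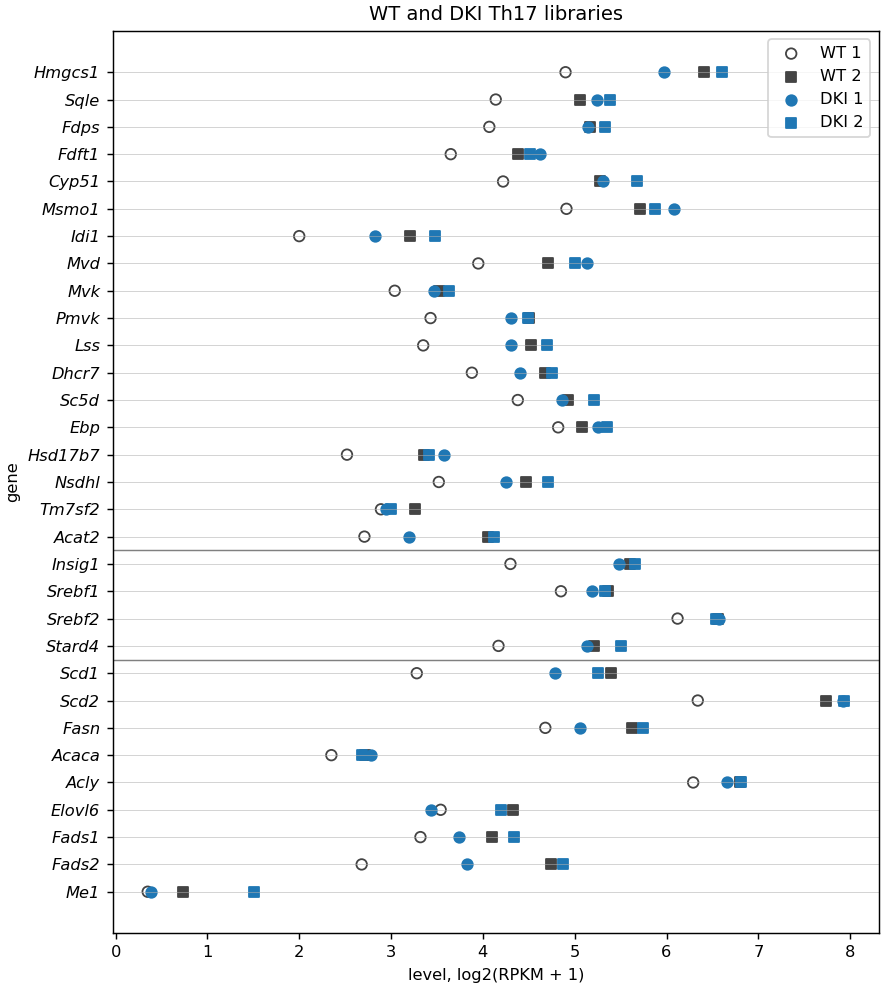
Level of each of the 31 genes (rows) in the 2 WT libraries (grey; open circle replicate 1, square replicate 2) and the 2 DKI libraries (blue), as log2(RPKM + 1) on the x axis. WT replicate 1 is the leftmost point in most rows.

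These folds rested on WT replicate 1. Without it, the sterol median was 0.05 in place of 0.55 and the fatty acid median -0.06 in place of 0.29. The genes without overlap kept folds of 0.14 (Hsd17b7) to 0.36 (Mvd), with Msmo1 at 0.26. These could not fall below 0, since both DKI libraries lay above WT replicate 2. Among the overlapping genes Hmgcs1 (-0.13), Insig1 (-0.03) and Scd1 (-0.38) were below 0. Without WT replicate 2, the medians were 0.98 and 0.72, and 12 of the synthesis genes were called higher, where 0.613% of all genes were, with Scd2 at 1.59 and Sqle at 1.17 (limma adjusted p = 0.00877 and 0.0189). In either of these fits the lone WT library was assumed to vary like the other Th17 groups. Of the interferon genes 16 of 16 were below 0 in DKI cells (median -1.50), with the highest summed level in WT replicate 1, and 2 of them did not overlap between the genotypes. Of the myeloid markers 9 of 9 were below 0 (median -0.99), and 8 of 9 did not overlap, both WT libraries being above both DKI libraries, where 20.1% of all genes were. Limma called 0 genes of either list, and their part in the synthesis genes was not tested.

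Of the other 19 SREBP pathway genes, which include the SREBP processing machinery, 16 were tested and 0 were called, with a median fold of 0.08. Acss2, an acetyl-CoA synthetase, had a fold of -0.45, and Elovl1, an elongase of long fatty acids, one of 0.28. Of 12 genes of sterol efflux and oxysterol sensing, known targets or partners of LXR receptors, 10 were tested and 0 were called, with a median of -0.32. Apoe, a lipid carrier that myeloid cells express strongly, had a fold of -1.57, and Abca1, the cholesterol exporter, one of -0.67.

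CCL17 is a chemokine that signals through CCR4 on T cells, and the next comparison asks how DKI Th17 cells respond when it is added. No synthesis gene was called. With limma, 0 of 11297 genes were called (0.0% higher, 0.0% lower, smallest adjusted p = 0.976) and 411 (3.64%) had an unadjusted p under 0.05, among them 1 synthesis gene. The sterol median fold was -0.00, the regulator median -0.01 and the fatty acid median 0.13, beside -0.01 over all genes. Between the groups 1 synthesis gene did not overlap on the higher side, where 5.2% of all genes did not, and 0 on the lower side, where 4.28% did not.

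The gene was Pmvk in both counts, which stood at 3.71, 3.73 and 3.68 without CCL17 and at 3.91, 3.85 and 3.79 with it, a fold of 0.14 (SE 0.06, limma adjusted p = 0.999). The other sterol genes with the smallest p were Msmo1 (fold -0.10, SE 0.06), Lss (0.08, SE 0.07) and Acat2, the cytosolic thiolase (-0.08, SE 0.07). The arms overlapped in each of them. Hmgcs1 had a fold of -0.01 (SE 0.08) and Sqle one of -0.06 (SE 0.07).

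In the fatty acid branch 7 of 8 tested genes had a fold above 0. Fasn stood at 5.17, 4.52 and 4.45 without CCL17 and at 5.13, 4.84 and 4.84 with it, a fold of 0.22 (SE 0.20). It was 0.45 without replicate 1 and 0.13 and 0.09 without replicates 2 and 3 of the arm without CCL17, and 0.12 without replicate 1 of the CCL17 arm, uncalled in each. Replicate 1 of both arms was the high library, and only replicates 2 and 3 were higher with CCL17. Acaca, the acetyl-CoA carboxylase that makes malonyl-CoA, had a fold of 0.16 (SE 0.12), Elovl6 one of 0.14 (SE 0.08), Scd1 one of 0.14 (SE 0.11) and Fads2 one of 0.13 (SE 0.10).

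Insig1 stood at 5.23, 5.32 and 5.37 without CCL17 and at 4.89, 5.29 and 5.20 with it, a fold of -0.18 (SE 0.11). Stard4 had a fold of 0.07 (SE 0.09), Srebf2 one of -0.01 (SE 0.07) and Srebf1 one of -0.00 (SE 0.08). With libraries paired by replicate number, 7 of the 30 tested genes were higher with CCL17 in 3 of 3 pairs (Fdps, Mvd, Pmvk, Nsdhl, Scd1, Acly and Elovl6), where 16.4% of all genes were. Msmo1, Acat2 and Insig1 were higher in 0 of 3 pairs, as were 20.2% of all genes.

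**Figure D4:**
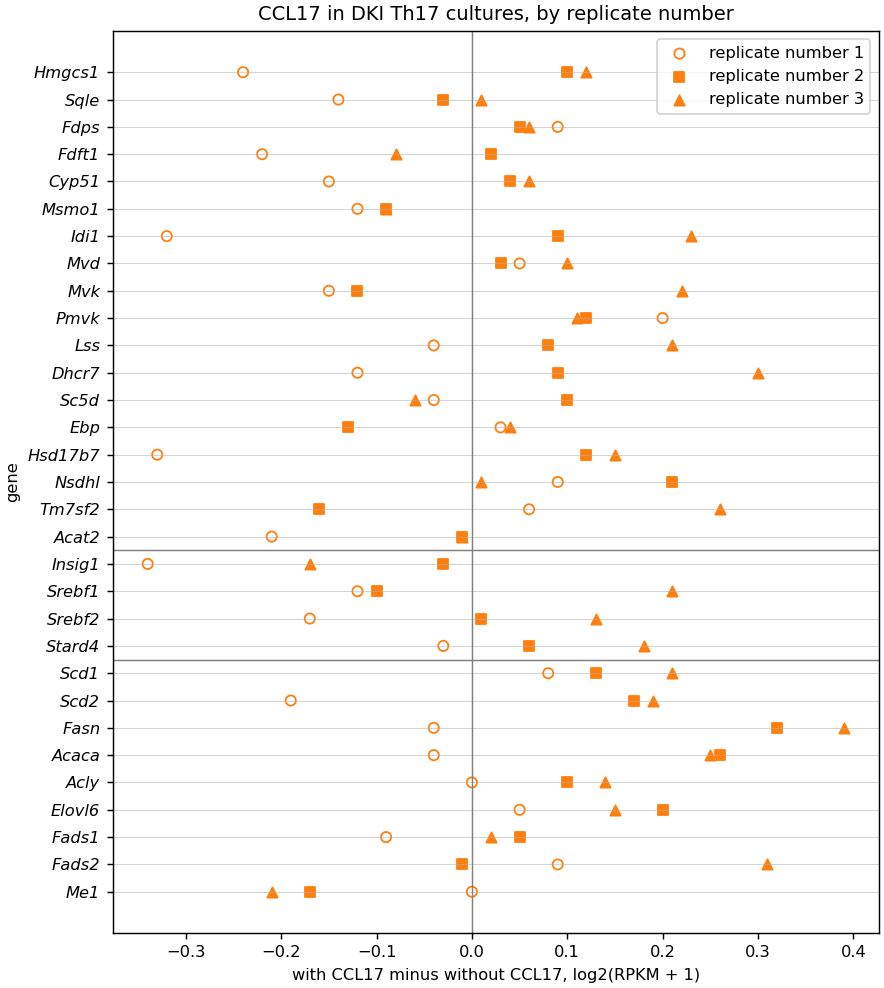
Difference between the library with CCL17 and the one without it of the same replicate number (x axis, log2(RPKM + 1)) for each of the 31 genes (rows). Differences scatter on both sides of 0, the open circles of number 1 mostly to the left of the other points.

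A block for the replicate number gave 2 called genes over the whole table and 0 synthesis genes, with adjusted p = 0.289 for Scd1, 0.306 for Insig1 and 0.31 for Fasn in limma. Both replicate 1 libraries were also left out, a choice made after the values were seen. Then 208 genes were called (0.75% of all genes higher and 1.08% lower), among them 1 synthesis gene, Fasn, at a fold of 0.35. The main fit with all replicates, which called no gene of any list, gave the other SREBP genes a median of 0.02 and the LXR list one of -0.10.

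Untreated DKI Th17 cells were sequenced in both sets, and the set without CCL17 can be set beside the DKI libraries of the WT comparison. The synthesis genes were lower in the set without CCL17: 28 of 30 tested genes had a fold below 0, with medians of -0.42 in the sterol branch, -0.21 in the regulators, -0.35 in the fatty acid branch and -0.01 over all 11507 genes. With limma, 3 sterol genes were called lower, where 17.8% of all genes were, and 0 were called higher, where 15.4% of all genes were. In 16 genes the sets did not overlap on the lower side, where 29.6% of all genes did not, and in 0 on the higher side, where 26.0% did not.

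The 3 genes called act late in the sterol branch, but the folds did not follow the order of the steps. Msmo1 (-0.05) and Hsd17b7 (0.04) also act after lanosterol, and the earlier Mvd had a fold of -0.55. Tm7sf2, a sterol reductase, stood at 2.94 and 3.00 in DKI and at 2.52, 2.52 and 2.43 in DKI without CCL17, a fold of -0.48 (SE 0.14, limma adjusted p = 0.0265). Sc5d, a sterol desaturase, stood at 4.86 and 5.21 and at 4.63, 4.39 and 4.47, a fold of -0.54 (SE 0.17, limma adjusted p = 0.0407). Dhcr7, which acts in the last step to cholesterol, stood at 4.40 and 4.75 and at 4.15, 3.85 and 3.70, a fold of -0.68 (SE 0.23, limma adjusted p = 0.0487). No value of one set reached the other in these genes. All 3 calls were lost without DKI replicate 2, and without replicate 2 or replicate 3 of the set without CCL17, each of which left 0 synthesis genes called. The folds were then -0.45 to -0.50 for Tm7sf2, -0.36 to -0.52 for Sc5d and -0.50 to -0.65 for Dhcr7. Without DKI replicate 1, Sc5d stayed called, Tm7sf2 (limma adjusted p = 0.0635) and Dhcr7 (0.0557) did not, and Elovl6 (fold -1.04, limma adjusted p = 0.02) and Me1, which passed the filter in that fit, were called lower.

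Pmvk, an early gene, had a fold of -0.69 (limma adjusted p = 0.0626), while Hmgcs1 (-0.23) and Sqle (-0.02) lay closer to 0. In the fatty acid branch Elovl6 (-0.66, limma adjusted p = 0.0795), Scd2 (-0.72, 0.122), Acly (-0.31, 0.132) and Fasn (-0.69, 0.135) were not called. Scd2 stood at 7.92 and 7.93 in DKI and at 7.27, 7.18 and 7.17 without CCL17, without overlap. Its SE of 0.32 takes in the spread of the WT libraries (SD 0.99 in WT, 0.00 in DKI and 0.06 without CCL17). Srebf1 had a fold of -0.34 (limma adjusted p = 0.0962) and Insig1 one of -0.26.

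Markers of other cells differed between these sets of libraries, where 15.4% of all genes were called higher and 17.8% lower. All 10 myeloid markers were called higher in the set without CCL17 (median 4.44), as were 6 of 6 B cell markers (median 2.14) and 7 of 8 tested neutrophil markers (median 2.16), while 3 of 8 T cell markers were called lower (median -0.25). The summed myeloid markers were 22.3 and 38.6 RPKM in DKI and 852, 1330 and 1390 in the set without CCL17. Of 10 neutrophil markers, 1 and 3 reached an RPKM of 1 in the DKI libraries, and 10, 8 and 6 without CCL17. Most of those tested therefore passed the filter only through the set without CCL17, where they were high. So did the myeloid marker Adgre1 (0.05 and 0.28 in DKI). Of 6 B cell markers, 3 and 4 reached that level in the DKI libraries. Of 14 cell cycle genes 4 were called higher (median 0.50), as were 3 of 7 tested heat shock and immediate early genes (median 0.58), such as Atf3 (2.07). The part of these lists in the lower sterol and fatty acid values was not tested.

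In the same comparison 7 of 12 LXR genes were called higher, where 15.4% of all genes were, and 2 lower, where 17.8% were (median 0.54). They were led by Apoe (3.80), Ch25h, which makes an oxysterol (2.78), and Abca1 (1.62). Ch25h, at 0.0 in both DKI libraries, passed the filter only through the set without CCL17, where it was high. So did the receptor gene Nr1h3, at 0.94 and 0.68 in the DKI libraries. In level Apoe, Ch25h and Abca1 stood at 12.3, 3.27 and 5.66 in spinal cord monocytes and at 8.13, 0.03 and 1.21 in bone marrow monocytes. The part of the myeloid markers in these folds was not tested. Among 16 other SREBP genes 3 were called lower, where 17.8% of all genes were, among them Acss2 (-1.01) and Lpin1, a phosphatidate phosphatase (-0.68). The 1 called higher, where 15.4% of all genes were, was Mbtps2, a protease that cuts SREBPs (0.66).

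The monocyte comparison sets the inflamed spinal cord beside the bone marrow in DKI mice. Each group is 1 library, so no difference has a replicate check. Over the 8182 genes compared (RPKM of at least 5 in either library) the median difference was -0.37. The median was -0.31 in the sterol branch (13 genes), -0.37 in the regulators and -0.46 in the fatty acid branch, of which 5 genes passed the filter. Without Acly and Me1 the fatty acid median was -0.98, and over all 9 fatty acid genes the deviation given above was -0.73 in the bone marrow and -1.83 in the spinal cord. The 2-fold mark is a difference of 1 on the log2(RPKM + 1) scale, which is more than 2-fold in RPKM. In the spinal cord 1 of 22 synthesis genes was higher by 2-fold or more, where 11.5% of all genes were, and 2 were lower, where 19.0% of all genes were.

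Insig1 was the gene that was higher. It stood at 6.10 in the spinal cord and 4.48 in the bone marrow, a difference of 1.62, or 3.17-fold in RPKM (95% interval 3.00 to 3.35, exact binomial, for counting error only). The genes that were lower, Elovl6 and Fasn, belong to the fatty acid branch. Both passed the filter only through the bone marrow library, where they were high. Elovl6 stood at 0.54 in the spinal cord and 2.65 in the bone marrow, 11.6-fold lower in RPKM (interval 9.07 to 14.9). Fasn stood at 1.54 and 3.07, or 3.87-fold lower (interval 3.51 to 4.27). Acaca, which lies between them and Acly in the pathway, went from 1.94 to 0.95 and was under the filter. Acly itself (6.61 and 6.16, difference -0.46) and Scd2 (4.68 and 4.25, -0.43) differed by about as much as the median gene.

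Sterol genes differed in both directions. Dhcr7, at 3.10 in the bone marrow and 2.10 in the spinal cord, came just short of the 2-fold mark on that scale (2.30-fold lower in RPKM). It passed the filter only through the bone marrow library, where it was high. Ebp (difference -0.83) and Fdps, which makes farnesyl diphosphate (-0.71), were lower too. Cyp51 (3.15 and 3.83, difference 0.68) and Pmvk (3.34 and 3.94) were higher in the spinal cord. Stard4 had a difference of -0.53, Srebf2 one of -0.38, and Hmgcs1 (-0.12) and Sqle (-0.08) hardly differed. A further 9 genes (Acaca, Tm7sf2, Acat2, Idi1, Lss, Hsd17b7, Scd1, Fads2 and Me1) were under the filter in both libraries.

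**Figure D5:**
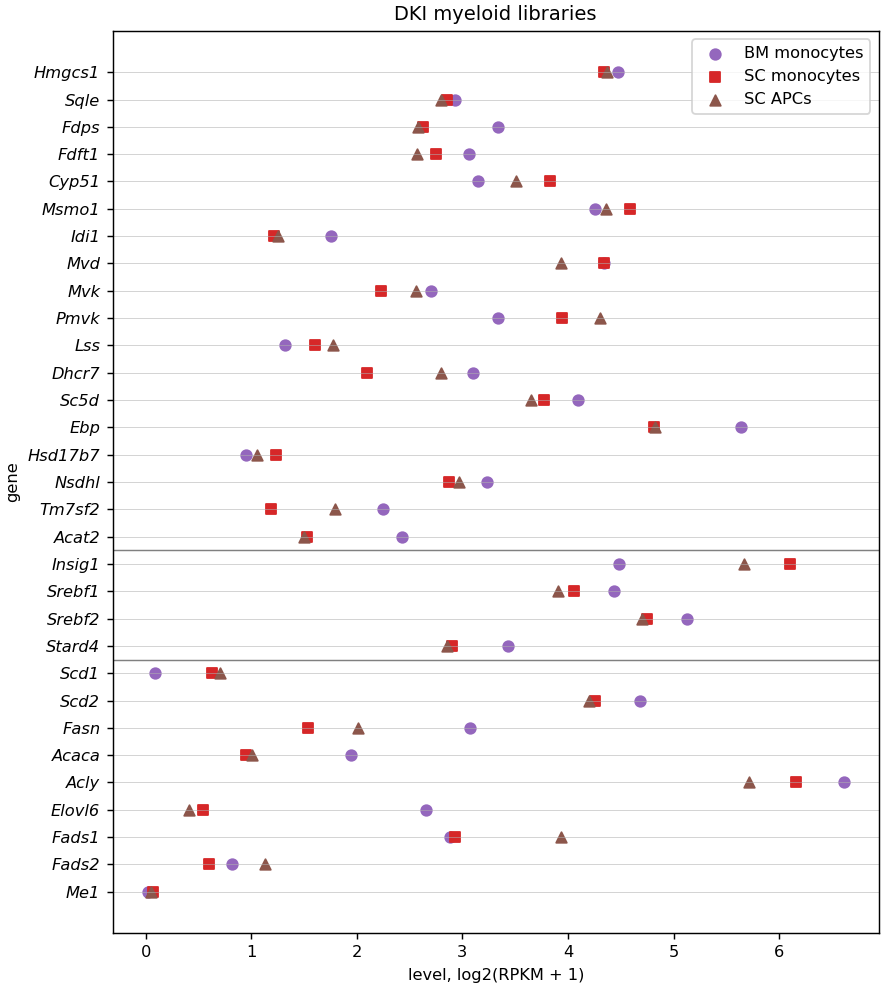
Level of each of the 31 genes (rows) as log2(RPKM + 1) in the 3 DKI myeloid libraries: bone marrow monocytes (circle), spinal cord monocytes (square) and spinal cord APCs (triangle). Elovl6 and Fasn stand far to the right in bone marrow and Insig1 far to the left, and in most rows the spinal cord symbols lie close together.

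Other lists moved in the same comparison. Of 12 LXR genes 6 were higher by 2-fold or more in the spinal cord monocytes, where 11.5% of all genes were. They were led by Abca1 (4.45), the receptor gene Nr1h3 (4.16) and Apoe (4.16). Of 13 other SREBP genes compared 3 were lower by 2-fold or more, where 19.0% of all genes were, among them Aacs (-1.27) and Acss2 (-1.22). Cell cycle genes were lower by 2-fold or more in 13 of 14 (median -3.83), their summed level being 972 RPKM in bone marrow and 117 in spinal cord. At the same mark 9 of 9 neutrophil and granule markers were lower, 13 of 16 interferon genes higher and 9 of 11 heat shock and immediate early genes higher (median 2.52, led by Hspa1b at 5.14 and Atf3 at 4.81). So were 7 of 8 microglia markers, with a sum of 191 RPKM in bone marrow and 494 in spinal cord. Many genes of these lists passed the filter only through the library where they were high. That library was the spinal cord for Abca1, Nr1h3, Tmem119, Olfml3, Siglech, Gpr34 and Fcrls. It was the bone marrow for cell cycle genes such as Top2a, Kif11 and Ccna2. The part of these lists in the differences of Insig1, Elovl6 and Fasn was not tested.

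Spinal cord APCs and spinal cord monocytes were close in these genes. Of 19 synthesis genes compared 0 passed the 2-fold mark on the log2(RPKM + 1) scale in either direction, where 1.55% of 7499 genes were higher by that much and 0.947% lower, and the medians were -0.05 in the sterol branch, -0.11 in the regulators and -0.05 in the fatty acid branch, beside 0.03 over all genes. Fads1 came closest, at 3.93 in APCs and 2.93 in monocytes, which is 2.15-fold higher in RPKM (interval 1.95 to 2.37). Dhcr7 was higher in APCs by 0.70 (2.80 against 2.10) and Pmvk by 0.35, while Acly (-0.45), Insig1 (-0.43), Mvd (-0.42) and Cyp51 (-0.32) were lower. Dhcr7 passed the filter only through the APC library, where it was high. Fads2, which acts in the same pathway as Fads1, was under the filter, at 1.13 and 0.60, or 2.28-fold (interval 1.56 to 3.35). All 9 microglia markers were higher by 2-fold or more in APCs (median 1.50, sums of 1250 and 494 RPKM), as were 5 of 5 dendritic cell markers. Of these, Sall1 and some dendritic cell markers (median level of that list 1.67 in monocytes) passed the filter only through the APC library. The part of both lists in the difference of Fads1 was not tested. Apoe was the 1 LXR gene of 12 past 2-fold (1.07), and 0 of 10 other SREBP genes were.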

How the data were processed

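The 13 mouse libraries were made by mRNA sequencing. The tools, per the submitters' processing notes, were featureCounts and Subread on build mm10. Versions and annotation are not given in the sources used here. Values deposited by the authors are log2(RPKM + 1). The base was checked: in base 2 the length-weighted sums were 1029000 to 1070000 per library, in base e 7803000 to 14732000. Genes without reads carried 0.0001, set here to 0. The spinal cord APCs were read from a column whose name gives monocyte-derived cells, matched as the only column and sample left. Of the gene identifiers 20857 matched the RefSeq table and 216 kept the file's symbol.

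Assigned reads (12600000 to 31800000 per library) were estimated from the step between low values. At these totals 74.7% to 76.7% of values of up to 5 reads lay within 0.1 reads of a whole number, where an even spread gives 20%. Clopper-Pearson 95% intervals on these reads cover counting error only, since PCR copies are not independent molecules.

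Th17 groups were tested in R 4.3.3 by limma 3.58.1 (eBayes with a mean-variance trend, Benjamini-Hochberg over all genes tested, called at an adjusted p under 0.05). Genes needed an RPKM of at least 1 in 2 libraries, or in 3 for CCL17. The contrasts of DKI with WT, and of DKI without CCL17 with DKI, came from 1 fit over the 10 Th17 libraries, and CCL17 used its own 6. Myeloid groups of 1 library were compared without a test, at an RPKM of at least 5 and a 2-fold mark on log2(RPKM + 1). In the CCL17 experiment residuals of libraries with the same replicate number correlated across genes at 0.76, 0.50 and 0.51, so the numbers were taken to pair the samples. That pairing comes from the data and not from the labels, and it rests on replicate 1, which stood apart (-0.61 to -0.63): replicates 2 and 3 correlated as well across numbers (0.48 and 0.50). On simulated data limma recovered genes given a log2 shift of 1 at 75% for DKI and WT, 75% for CCL17 and 83% for the contrast of both untreated DKI sets. The simulated noise was independent between genes, with the same SD in all groups. These rates therefore do not cover an outlying library such as WT replicate 1 or replicate shifts shared across genes.

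The genes, the 17 comparison lists and the tests were chosen with earlier results of these data known. Values are printed for up to 4 sterol genes, 2 regulators and 4 fatty acid genes per comparison with the smallest p (myeloid: the largest difference), for 7 genes throughout, and for up to 3 genes of other lists. Some genes of those lists are not reported here. Exceptions and outlying values among the 31 genes were named after their values were seen. The alternatives tried were another pseudocount, filters, centring, quantile normalization, a fit of only the libraries compared, a replicate block, a 4-fold mark, removal of a length trend and leaving out each library.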

Additional observations from a re-analysis of the deposited data

How the results depend on the processing

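Under changed settings the branch medians and counts of calls stayed close to the reported values in 147 cases and moved in 16, and with a replicate left out they stayed in 62 and moved in 13. For DKI against WT, 0 genes were called, and 7 after quantile normalization. A replicate block called 1281 genes (7.32% of all genes higher and 4.24% lower), among them 3 of the 30 synthesis genes (Cyp51 0.74, Sc5d and Ebp). The numbers of WT and DKI are only shared numbers, with a residual correlation of 0.42. With 2 libraries a group, both pairs give this same value by construction. Leaving out each replicate gave 1 to 559 called genes, 0 to 12 synthesis genes, sterol medians of 0.05 to 0.98 and a sterol minus fatty acid gap of -0.01 to 0.26. The folds then ranged from -0.22 to 0.72 for Fasn, -0.06 to 0.45 for Acly, -0.06 to 0.72 for Fads1, -0.13 to 1.38 for Hmgcs1, -0.03 to 1.27 for Insig1, -0.38 to 1.74 for Scd1, -0.09 to 0.41 for Srebf1 and -0.01 to 0.43 for Srebf2.

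For CCL17, the replicate block called 2 genes and changed no call of a synthesis gene. Without both replicate 1 libraries 208 genes (0.75% of all genes higher and 1.08% lower) and 1 synthesis gene were called, and Hmgcs1 stood at 0.11 and Srebf2 at 0.07. After quantile normalization they stood at 0.03 and 0.02. Leaving out each replicate gave -0.04 to 0.06 for Hmgcs1, -0.09 to 0.01 for Sqle and -0.06 to 0.06 for Srebf2.

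For DKI without CCL17 against DKI, synthesis genes called were 1 with no filter (11.6% of all genes called higher, 12.6% lower), 5 after quantile normalization (12.6% and 22.4%) and 0 with the replicate block (5.02% and 2.22%, 833 genes in all, Sqle 0.02, numbers only shared, correlations 0.13 and 0.10). The fit of only the libraries compared called 2423 genes. Leaving out each replicate gave 2513 to 3662 genes, 0 to 3 synthesis genes, a sterol minus fatty acid gap of -0.13 to 0.22, Sqle at -0.09 to 0.05 and Hmgcs1 at -0.55 to 0.08.

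For spinal cord against bone marrow monocytes, median centring brought the sterol median to -0.01, the 4-fold mark left 1 gene, and without Acly and Me1 the fatty acid median was -0.98. For APCs against monocytes, a pseudocount of 0.1 put 1 gene past 2-fold, and without Acly and Me1 the fatty acid median was 0.47. Except for those made by fewer libraries, the cause was not tested. Myeloid differences have no replicate check, and differences within the counting intervals cannot be seen at this depth.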
